A study of Rattus norvegicus with 12 samples.

Results

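The Zbtb16 locus of the rat is described here through the 42 rows of assembled genes that the authors' table places at chromosome 8, 52980103 to 53147051, a span of 166948 bp. The rows were chosen by that position alone out of 58341 in the table, and the position was picked because earlier results had shown many increases there. Its values are therefore given as a description, and none of them is independent support for a response. No row of the table carries a gene symbol. The name Zbtb16 rests on the rn6 position of that gene, and no annotation of that build was used here to check it.

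The RNA came from hippocampi of male Sprague-Dawley rats of 8 weeks, all adrenalectomised. One group of 6 received corticosterone at 300 µg/kg and the other group of 6 received vehicle. All were killed 1 h after treatment. The agent is named as corticosterone in the sample titles, which were followed, and as cortisone in the source names. Both groups lacked adrenal glands, so the contrast is between hormone given back and hormone withheld, and intact rats were not analysed here. The table gives 1 pooled FPKM value per group and row (a fragment level scaled for transcript length and sequencing depth), so there is no SD, the spread between rats is unknown, and read depth per rat is unknown. The tissue could not be checked against cell type markers, since 0 of 58341 rows carry a symbol. In whole hippocampus, more cells that express a gene and more RNA per cell cannot be told apart.

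Zbtb16 encodes PLZF, a transcription factor with a BTB domain and a row of zinc fingers that binds DNA and represses its targets by bringing in co-repressors and histone deacetylases. It is known for its part in limb patterning, in keeping spermatogonial stem cells and in innate-like T cells, and for its fusion to the retinoic acid receptor alpha gene in a form of acute promyelocytic leukaemia. Its transcription is induced by glucocorticoids in many cell types. Corticosterone, the main glucocorticoid of the rat, acts through the glucocorticoid receptor and the mineralocorticoid receptor, both abundant in the hippocampus. In the RefSeq order of genes on rat chromosome 8 (GRCr8), Zbtb16 lies between Nnmt, which encodes a nicotinamide N-methyltransferase, and Htr3a, which encodes a serotonin receptor subunit.

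Every row of the locus had a higher value with corticosterone, 42 of 42, where 51.8% of all 42839 tested rows of the table had one. The authors marked 10 of the 42 as different at a q of 0.05 or less, all of them higher, and 0.345% of all tested rows carry that mark in either direction (0.271% for higher values). Those 10 are 8.62% of the 116 rows called higher in the whole table. The position was chosen with these calls known, so nothing is read from this share. All 42 rows passed the authors' filter for testing, each had a mean of at least 1 FPKM, and none was listed at 0 in a group.

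One row stood far above the others in abundance. XLOC_052018 had 12.5 FPKM with vehicle and 26.9 FPKM with corticosterone, a difference of 14.5 FPKM and 2.16-fold. The authors called it, and their deposited table gives it q = 0.0165 and p = 5e-05, the lowest of either kind there. Many rows tie at these values: 9 rows of the locus have that p, and rows at other loci have that q. With vehicle its level was above that of 90.8% of tested rows, and with corticosterone above that of 96.2%.

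The remaining 41 rows were sparse with vehicle and of moderate level with corticosterone. With vehicle they ran from 0.69 to 2.61 FPKM, with a median of 1.42 FPKM. With corticosterone they ran from 2.03 to 11.4 FPKM, with a median of 5.61 FPKM. The ranges overlap only between 2.03 and 2.61 FPKM, although within each row the corticosterone value was the higher. Against the table as a whole, their median vehicle level exceeded that of 32.4% of tested rows and their median corticosterone level exceeded that of 78.9%.

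**Figure D1:**
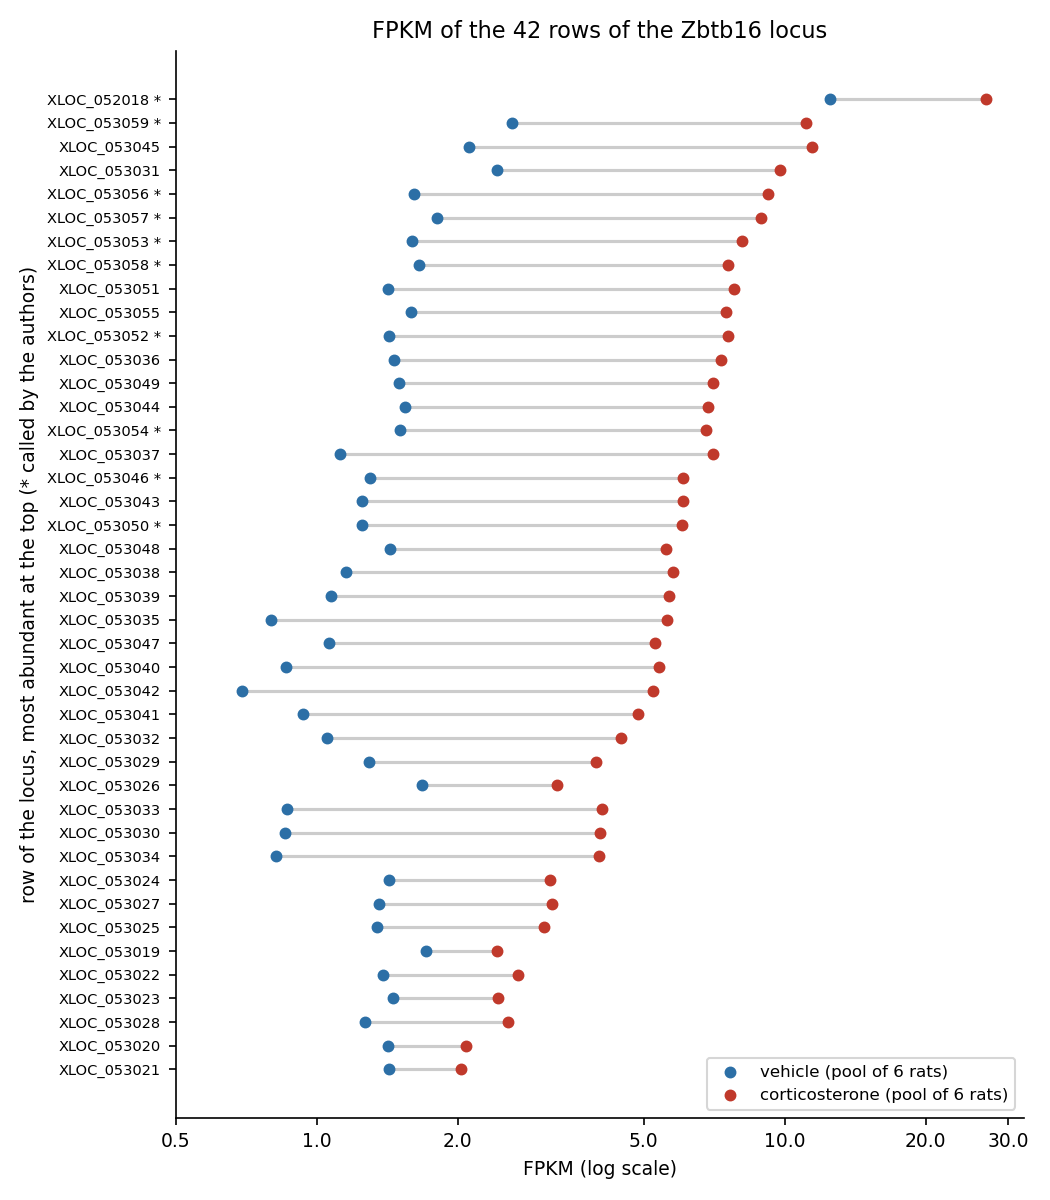
FPKM (log scale, x axis) of each of the 42 rows (y axis, ordered by the mean of both groups), with vehicle in blue, corticosterone in red, and a line joining the pair of pooled values of a row. All 42 corticosterone values lie to the right of their vehicle values, and the 10 rows marked with an asterisk were called by the authors.

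The sparse rows differed by larger ratios than the abundant one. Their median was 4.69-fold, with a range from 1.42-fold to 7.57-fold, and 34 of the 41 exceeded the 2.16-fold of XLOC_052018. Their differences in level were smaller, since the largest of them, 9.31 FPKM at XLOC_053045, stayed below the 14.5 FPKM of XLOC_052018. Summed over all 42 rows, the level was 69.1 FPKM with vehicle and 259.8 FPKM with corticosterone, 3.76-fold. XLOC_052018 made up 18.1% of that sum with vehicle and 10.4% with corticosterone. FPKM is scaled for length and the row lengths are unknown here. The sum and these shares therefore depend on how many rows were assembled, and they do not measure the output of the locus.

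Large ratios of this kind were rare elsewhere. Of all tested rows with both values above 0, 57 were at least 4-fold higher with corticosterone, or 0.133% of those tested, and 29 of the 57 belonged to this locus. Among rows with a mean of at least 1 FPKM the count was 41, of which the same 29 were here. The 57 rows lay at 22 loci and the 41 rows at 11 loci. The rows of a locus share their source, so 29 rows are not 29 separate responses.

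**Figure D2:**
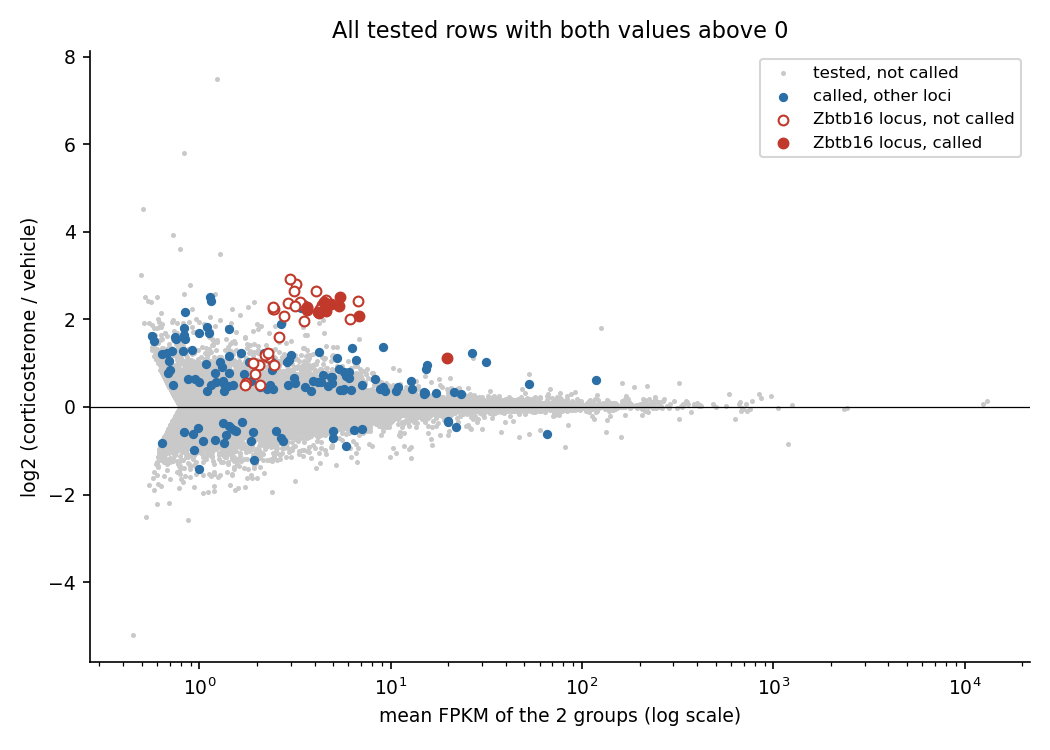
Log2 ratio of corticosterone to vehicle (y axis) against the mean FPKM of both groups (x axis, log scale) for tested rows with both values above 0. The 42 rows of the Zbtb16 locus (red, filled where called) lie above 0, between log2 ratios of 0.51 and 2.92, apart from the grey band of uncalled rows around 0 at the larger ratios.

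The 9 sparse rows that the authors called were alike in size. Their vehicle values ran from 1.25 to 2.61 FPKM and their corticosterone values from 6.02 to 11.1 FPKM, and the ratios from 4.25-fold to 5.70-fold. The most abundant of them, XLOC_053059, rose from 2.61 to 11.1 FPKM, 4.25-fold. XLOC_053056 rose from 1.61 to 9.20 FPKM, 5.70-fold, and was the row just inside the threshold, with q = 0.0434 in the authors' deposited table. The other 7, XLOC_053046, XLOC_053050, XLOC_053052, XLOC_053053, XLOC_053054, XLOC_053057 and XLOC_053058, had q = 0.0165 in the authors' deposited table, its lowest. Of these, XLOC_053057 rose from 1.81 to 8.91 FPKM and XLOC_053053 from 1.60 to 8.11 FPKM.

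Among the sparse rows, all 9 called ones were above 4-fold, as were 20 of the 32 uncalled ones, and none of the 10 rows with a log2 ratio under 1.5 was called. The 4 rows with the largest ratios were not called. XLOC_053042 had the largest ratio of the locus, with 0.69 FPKM with vehicle and 5.24 FPKM with corticosterone, 7.57-fold, and was not called (p = 0.0760 in the authors' deposited table). XLOC_053035 followed with 0.80 and 5.61 FPKM, 7.01-fold, and p = 0.236 in the authors' deposited table. XLOC_053045 had the highest corticosterone value of the sparse rows, 11.4 FPKM against 2.12 FPKM with vehicle, and p = 0.239 in the authors' deposited table. XLOC_053031, with 9.78 FPKM against 2.42 FPKM with vehicle, was also uncalled at p = 0.159 in the authors' deposited table. Rows of like level and ratio thus had deposited p-values far apart. The columns used here do not hold row lengths or fragment numbers. The sparsest row, XLOC_053021, had 1.43 FPKM with vehicle and 2.03 FPKM with corticosterone, 1.42-fold (p = 0.654 in the authors' deposited table).

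Just outside the threshold was XLOC_053049, with 1.503 FPKM with vehicle and 7.04 FPKM with corticosterone and q = 0.189 in the authors' deposited table. Next came XLOC_053055, with 1.59 and 7.48 FPKM and q = 0.790 in that table. XLOC_053051, at 1.42 and 7.78 FPKM, was also among the 10 most abundant rows without a call. Unadjusted, 15 of the 42 rows had a p of 0.05 or less in the authors' deposited table, and 9 had its smallest value. The shares of all tested rows with such p-values were not computed, so nothing is read from these counts. At 242 other loci with at least 20 tested rows of the kind described below, 24 of 9014 rows had a p of 0.05 or less. Those rows are a part of the table that holds no call. Their count does not stand in for the share over all tested rows.

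The identifiers of the rows carry numbers, and the rows were also read in the order of those numbers. A run of identifiers was taken to end where the start of the locus falls as the number rises. By that definition, the table's identifiers fall into 3 runs on each of the 21 chromosomes 1 to 20 and X. On chromosome 8 the runs hold 464, 434 and 2076 rows. XLOC_052018 belongs to the second run. The 41 sparse rows all belong to the third run and have consecutive numbers, XLOC_053019 to XLOC_053059. All rows of the locus share 1 pair of outer bounds in the table. The order used inside the locus is therefore that of the numbering only, and whether it follows position there could not be checked. The sources used here do not say what the runs stand for or on which strand a row lies.

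Read in that order, the sparse rows were not uniform. They were split into 4 consecutive blocks of 10, 10, 10 and 11 rows after their values had been seen. In the first block, XLOC_053019 to XLOC_053028, vehicle values ran from 1.27 to 1.71 FPKM and corticosterone values from 2.03 to 3.26 FPKM. The median there was 1.94-fold and the range 1.42-fold to 2.35-fold. All 10 rows of the locus with a log2 ratio under 1.5 among the sparse rows were in this block. That cut falls in a gap between 1.23, the highest of this block, and 1.61 at the next row, XLOC_053029. It therefore splits the rows just as the block does. The block held 0 calls, where 0.345% of all tested rows were called.

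The later blocks had larger and nearly equal median ratios. The second block, to XLOC_053038, had a median of 4.80-fold, the third, to XLOC_053048, 5.07-fold, and the fourth, to XLOC_053059, 4.81-fold. The ratio rose at the edge between the first and the second block. XLOC_053028 had 2.02-fold, XLOC_053029 had 3.04-fold, and XLOC_053030 had 4.69-fold. After XLOC_053029 the lowest log2 ratio was 1.957, at XLOC_053048. The calls were concentrated at the highest numbers, with 0 in the second block, 1 in the third and 8 in the fourth. At an unadjusted p of 0.05 or less in the authors' deposited table the counts were 0, 1, 3 and 10 from the first block to the fourth. The share of all tested rows at that threshold was not computed. No row before XLOC_053046 was called among the sparse ones.

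The level with corticosterone changed along the order more evenly than the ratio did. Block medians with corticosterone were 2.63, 5.03, 5.62 and 7.57 FPKM. With vehicle they were 1.43, 1.09, 1.16 and 1.59 FPKM, so the ends were a little higher than the middle. The median differences between groups were 1.297, 4.01, 4.57 and 6.12 FPKM. Thus the first block combined ordinary vehicle levels with small differences, while the fourth combined the highest levels in both groups with the largest differences.

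As a description over 41 rows that share the same pooled libraries, Spearman's rho between the place in the order and the corticosterone level was 0.84. It was 0.26 for the vehicle level and 0.58 for the log2 ratio. The last value rests on the first block. Over the 31 rows of the other blocks, rho for the log2 ratio was 0.026, whereas it was 0.65 for the corticosterone level and 0.62 for the vehicle level. Over those 31 rows the log2 ratio thus had no steady rise or fall with the order, although it was not constant. It was 1.61 at XLOC_053029, reached 2.92 at XLOC_053042 and was 2.09 at XLOC_053059. Within the first block it was also uneven, from 0.51 at XLOC_053019 to 1.23 at XLOC_053027. Over the 31 later rows the FPKM values tended to increase in both groups. The median vehicle level was lower in the second block than in the first, with 1.09 against 1.43 FPKM.

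**Figure D3:**
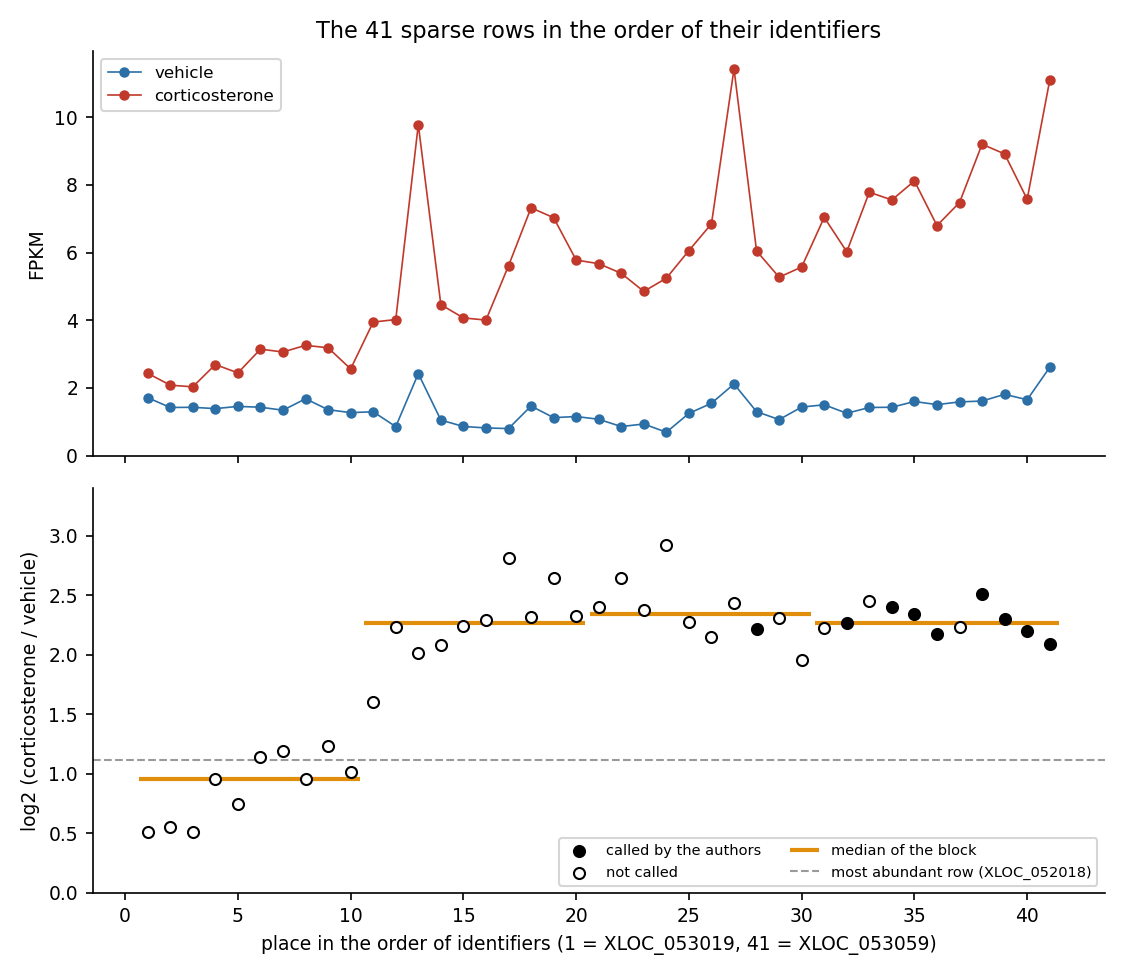
The 41 sparse rows in the order of their identifiers (x axis), with FPKM by group above and the log2 ratio of corticosterone to vehicle below, where orange bars are block medians and the dashed line is XLOC_052018. The first 10 rows sit at a median log2 ratio of 0.95 and the last 11 at 2.27, and filled points, called by the authors, stand only from XLOC_053046 on.

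Isolated peaks in level broke the order at XLOC_053031, XLOC_053045 and XLOC_053059. They stood out in both groups, with 2.42, 2.12 and 2.61 FPKM with vehicle and 9.78, 11.4 and 11.1 FPKM with corticosterone. Their ratios, 4.03-fold, 5.40-fold and 4.25-fold, were like those of their neighbours.

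Other loci with many sparse rows show how far such an order goes elsewhere. A total of 242 other loci held at least 20 tested rows of the third run with both values above 0. Their difference between the median log2 ratios of the last and the first block ran from -0.86 to 0.73, with a median size of 0.11, and that of the Zbtb16 locus was 1.31. Their rho between order and log2 ratio ran from -0.80 to 0.86, and in 14 of the 242 it was at least as large in size as the 0.58 found here. Their median log2 ratios ran from -0.54 to 0.74, against 2.23 here. Where ratios lie near 0, a block difference of 1.31 has little room to arise, and this locus was chosen for its increases. The larger block difference is therefore not read as particular to this locus. The other loci with several called rows had fewer than 20 tested rows and were not among the 242. All rows were higher with corticosterone at 4 of the 242. By the q of the authors' deposited table, none (0) of their 9014 third-run rows were called, and 24 had an unadjusted p of 0.05 or less. Over chromosomes 1 to 20 and X outside this locus, 46 of 28565 tested third-run rows were called, or 0.161%. No test of the difference was made, because each group is 1 pooled value.

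The other loci with several called rows were set beside it. The table has 8 loci with at least 2. The Zbtb16 locus has the most calls but also the most rows, and its share of rows called, 23.8%, is the lowest of the 8. The locus with the next highest number of calls, led by XLOC_027568, has 5 of 7 rows called, 71.4%, and the shares at the others run from 27.3% to 100%. At XLOC_048262 on chromosome 7 (125569769 to 125612977), the most abundant of 11 rows had 1.57 FPKM with vehicle and 3.21 FPKM with corticosterone, a called rise of 2.05-fold. Its 10 companions had a median of 3.45-fold. At XLOC_031691 on chromosome 20 (7974577 to 8087005), the leading row of 8 rose 2.55-fold and the other 7 had a median of 5.72-fold. At XLOC_027568 on chromosome 2 (62634694 to 62785299), the leading row of 7 had 3.72 and 6.88 FPKM and was not called (q = 0.747 in the authors' deposited table). The other 6 rows there had a median of 3.16-fold.

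At each of these 3 loci, every other row had a larger ratio than the leading one. The same held at the remaining loci with several called rows, some of which had only 1 other tested row. At the Zbtb16 locus 7 of the 41 did not, and all 7 were in the first block of the order. The sparse rows of the Zbtb16 locus were also more abundant with vehicle, with a median of 1.42 FPKM against 0.35, 0.24 and 0.45 FPKM at the loci on chromosomes 7, 20 and 2. These differences between loci were not tested.

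**Figure D4:**
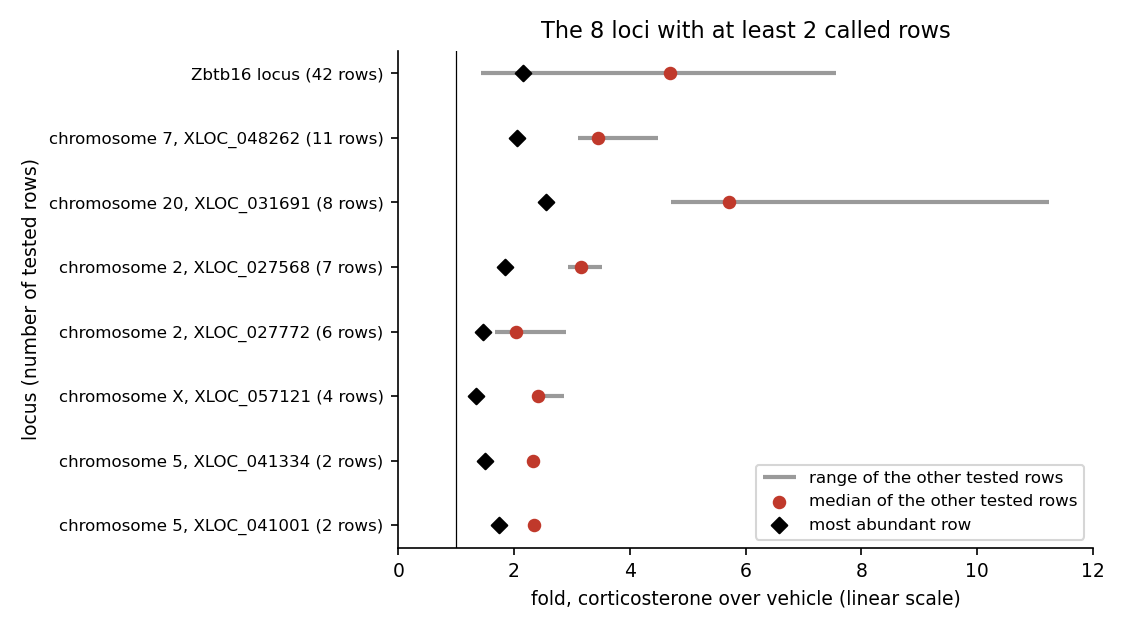
Fold of corticosterone over vehicle (x axis, linear) at the 8 loci with at least 2 called rows (y axis, with the number of tested rows), with a diamond for the most abundant row, a red point for the median of the other tested rows and a bar for their range. At the Zbtb16 locus the bar runs from 1.42-fold to 7.57-fold and includes the diamond at 2.16-fold.

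At the flanking loci the values of the groups were mostly close. Within 1 Mb on either side lay 33 loci with 43 tested rows, of which 0 were called by the q of the authors' deposited table, while 27 had the higher value with corticosterone. Their median log2 ratio was 0.032, and 1 row had an unadjusted p of 0.05 or less, XLOC_051543 with 1.14 FPKM with vehicle and 1.73 with corticosterone (p = 0.0149 in the authors' deposited table). The nearest locus at lower coordinates, XLOC_052017, lay 42.2 kb away and had 1.01 FPKM with vehicle and 0.89 FPKM with corticosterone. The next on that side were XLOC_052016, with 2.11 and 2.16 FPKM, and the locus led by XLOC_052015, with 15.6 and 15.8 FPKM.

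At higher coordinates the nearest, XLOC_052019, lay 64.4 kb away and had 1.72 FPKM with vehicle and 1.76 FPKM with corticosterone. Beyond it, XLOC_051539 had 8.18 and 8.32 FPKM, and XLOC_051540 had 4.61 and 4.45 FPKM. The largest ratio among the flanking rows was 2.28-fold at XLOC_053068, a sparse row with 0.39 and 0.89 FPKM. Of the 42 rows of the Zbtb16 locus, 9 had a smaller ratio than that, namely XLOC_052018 and 8 of the 10 rows of the first block.

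**Figure D5:**
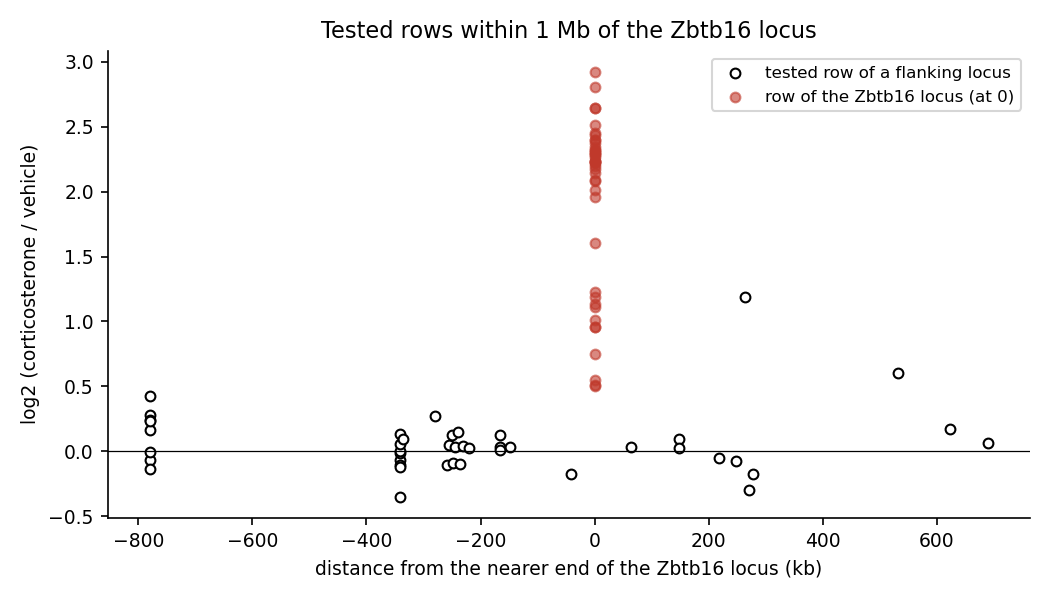
Log2 ratio of corticosterone to vehicle (y axis) of the tested rows within 1 Mb, against the distance in kb from the nearer end of the Zbtb16 locus (x axis, negative at lower coordinates), with the 42 rows of the locus in red at 0. The 43 flanking rows have a median of 0.032, and none was called.

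The authors' separate list of different transcripts also names this locus. Of its 122 transcripts, 10 have exactly these outer bounds, 8.20% of the list, and no other locus has more than 6. All 10 carry the higher of the list's 2 score codes. Their identifiers fall into a pair of neighbours, TCONS_00095756 and TCONS_00095757, and 8 that lie within 14 consecutive numbers, TCONS_00097764 to TCONS_00097777. The files do not pair transcripts with rows, so the 10 transcripts cannot be matched to the 10 called rows, and the list comes from the same animals.

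Several called loci had a ratio like that of XLOC_052018. Likeness was the absolute difference in log2 ratio between the most abundant called rows of loci, over the 2 pooled values. It was ranked among the 123 other loci that had a called row with both values above 0. Called rows with a value of 0 in a group have no finite ratio and were left out. The closest was XLOC_040680 on chromosome 5 (64789461 to 64803514), which rose from 3.32 to 7.16 FPKM, 2.16-fold. XLOC_021772 on chromosome 17 rose from 4.26 to 9.00 FPKM, 2.11-fold, and XLOC_019362 on chromosome 16 from 1.88 to 3.97 FPKM, 2.11-fold. XLOC_001161 on chromosome 1 rose from 0.88 to 1.97 FPKM and XLOC_052493 on chromosome 8 from 0.45 to 0.93 FPKM. Of the 123 loci, 19 had a larger rise than XLOC_052018.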

How the data were processed

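The members and lists were chosen with earlier results of these data known. Per the submitters' processing notes, the tools were Cuffdiff 2.2.1.3, Cufflinks 2.2.1.0, TopHat 0.9 and Bowtie2 0.6, listed without roles or settings. The notes name rn5, but the scaffold names in the table are those of rn6, and coordinates are printed as deposited. Per the file headers, the authors deposited FPKM values, 1 per group, with a log2 ratio of Control to Cort, p-values and q-values. The deposited log2 sign was turned: it matched the value ratio within 0.001 in 42 of 42 rows. The score of the authors' transcript list was used as a code only, and the deposited test statistic, also a score, was not used. No new test could be fitted.

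The named rows are the most abundant, called, threshold and sparsest rows and the 10 most abundant, with the nearest 3 loci on each side, the 3 loci with the most tested rows among those with several calls, and the 5 most alike. Other rows, the blocks, the flanking rows with the smallest p and the largest ratio, and the comparison of order were chosen after the values were seen. A list of glucocorticoid targets and cofactors and one of cell type markers matched 0 rows by symbol. Calculations used Python 3.11.15, pandas 2.3.3 and scipy 1.17.1 and were tested on simulated data.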

Additional observations from a re-analysis of the deposited data

How the results depend on the processing

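The 10 calls stayed 10 at a q of 0.10 or less, with adjustment limited to rows averaging 1 FPKM or more, and with a change of at least 1.5 times. At a q of 0.01 or less 0 were left, because the smallest q of the table is 0.0165. Unadjusted, 15 rows had a p of 0.05 or less, a count without the share over all tested rows. A pseudocount of 1 FPKM lowered the median log2 ratio of the 42 rows from 2.23 to 1.63, that of the first block from 0.95 to 0.64 and that of the last block from 2.27 to 1.74. The summed level had a log2 ratio of 1.91, and of 2.04 without the most abundant row. For the order of the sparse rows, alternatives were added after seeing the data. Spearman's correlation of the order with the log2 ratio, 0.58, became 0.026 without the first block, 0.75 without the third and 0.76 without the fourth. It was 0.84 for the corticosterone level, 0.26 for the vehicle level and 0.83 for the difference. No setting can turn the direction of a row, so the 42 higher values say nothing about stability. No paired analysis was possible because the table pools the 6 rats of a group into 1 value, which also prevents leaving out single rats. Depth is unknown, so the precision of the sparse rows is not bounded.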
